A study of Mus musculus with 8 samples.

Results

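Chemokine and interleukin-system transcripts were followed through an RNA immunoprecipitation sequencing experiment on mouse mammary cells, in which RNA that came down with an antibody against CPEB2 was sequenced together with total lysate RNA, the Input. The genes were chosen by symbol alone, as Cxcl, Ccl, Cx3cl or Il followed by a digit, in the authors' deposited table of 3' untranslated regions (3' UTRs). This gave 116 rows of 20586, 1 row per gene. The symbol rule takes secreted factors, interleukin receptor chains, their antagonists and 3 other genes with an Il symbol. It leaves out the chemokine receptors, which are given below as a separate list.

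The 8 libraries form 4 groups of 2, anti-CPEB2 immunoprecipitate (IP) from Cpeb2 knockout (KO) cells, IP from wild-type (WT) cells, Input from KO cells and Input from WT cells. All came from mice labelled C57BL/6J 129, and the antibody was used on both genotypes. The cells were freshly isolated by enzymatic digestion of mammary glands and enrichment for epithelium, without culture or treatment. The labels number each genotype 3 and 4, taken here as preparations, and pair these with RIP 2 and RIP 3, taken here as experiments. The sources used here do not give the age of the mice, the deleted part of Cpeb2 or whether a preparation was 1 animal or a pool. Poly(A) RNA was purified from Input only, per the labels, so every difference of IP and Input also holds the difference between unselected and selected RNA.

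Chemokines are small secreted proteins that bind G-protein-coupled receptors and guide the migration of leukocytes and other cells. The CXC, CC and CX3C families are named for the spacing of their first cysteines. Interleukins act through receptors built from a ligand-binding chain and a shared signalling chain, of which gp130, encoded by Il6st, serves IL-6, IL-11, LIF and oncostatin M. In the mammary gland gp130 ligands activate STAT3 at weaning, and IL-4 and IL-13 act on the luminal epithelium. Many cytokine mRNAs are short-lived and are controlled through proteins that bind their 3' UTRs. CPEB2 is itself a 3' UTR-binding regulator of poly(A) tails and translation, and the study asked which mRNAs associate with it.

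For every row the authors give a single log2 value in each group. It behaves like log2 of normalized counts with 1 added, and it has no SD and no n of its own. The authors tested the interaction, the log2 ratio of IP over Input in WT minus that in KO, with a Wald test in DESeq2. A positive interaction thus means that recovery over Input was lower in KO than in WT. An adjusted p exists for 5327 rows, those whose mean normalized count was 42.9 or more, and 26 of the 116 genes are among them. A further 18 had a mean count of at least 10, 58 had a lower one and 14 had no count. Read depth per library is unknown here. The labels do not say that the preparations were separate animals, and p-values cover only the spread among these libraries, possibly a technical one. The Cpeb2 3' UTR had group values of 7.43 in KO IP and 9.64 in WT IP, beside 5.98 in KO Input and 6.11 in WT Input. Its nearly equal Input values do not check the genotype labels, since the deleted part is not known here.

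The 26 tested genes are 10 CXC chemokines, 3 CC chemokines, the only CX3C chemokine, 2 interleukins and 10 receptor chains. None of the 6 antagonists, decoys and binding proteins was counted deeply enough to be tested. Among the 37 interleukin genes 10 had no count, including Il4, Il3, Il9 and Il22, and Il6 and Il33 alone were tested. Some rows are very short, such as Il1f6 with 1 base, Il1r2 with 12 and Il17rc with 21, and a low count there says little about the gene.

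No chemokine or interleukin-system 3' UTR passed the authors' interaction test at an adjusted p of 0.05. The count was 0 of 26 in either direction in the authors' deposited table (DESeq2 Wald test), where 2.25% of all tested rows passed with lower recovery in KO and 0% with higher recovery. At an unadjusted p under 0.05, Cxcl12 and Il6st had lower recovery in KO, 2 of 26 genes beside 12.5% of all tested rows, and 0 of 26 had higher recovery beside 1.09%. The median interaction of the 26 was 0.26 in the authors' deposited table and that of all tested rows was 0.23. Values above 0 were found for 17 of the 26, or 65.4%, beside 65.1% of all tested rows. At an adjusted p of 0.10 the count was again 0 of 26, beside 3.17% of all tested rows with lower recovery in KO. Estimates ran from -0.50 for Il4ra to 1.07 for Cxcl12, with standard errors (SE) from 0.32 to 1.32.

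**Figure D1:**
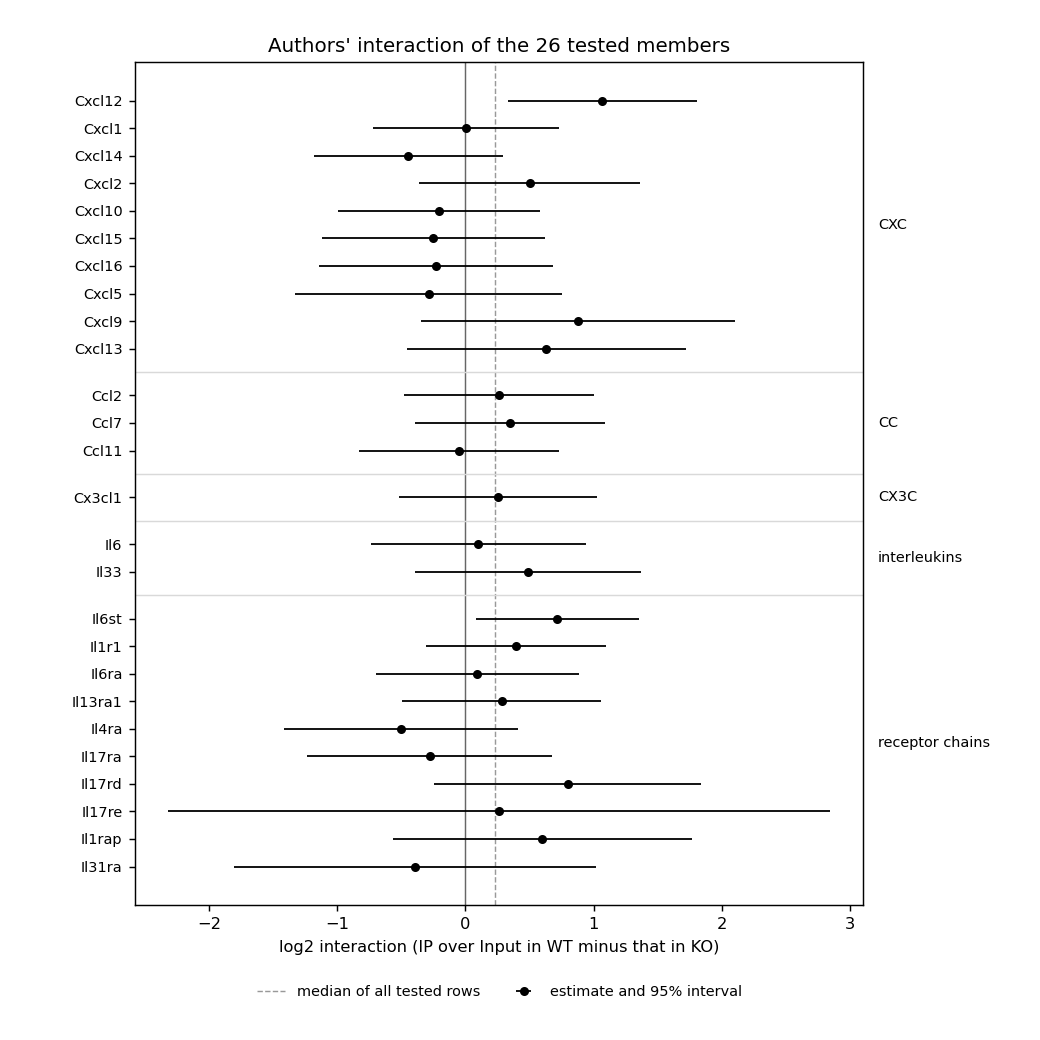
The authors' log2 interaction (horizontal axis, IP over Input in WT minus that in KO) for the 26 tested genes in rows grouped by role, with points for estimates and bars for 95% intervals. The dashed line marks the median of all tested rows, 0.23, and the intervals of Cxcl12 and Il6st alone lie wholly on one side of 0.

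Cxcl12, which encodes the chemokine SDF-1 that retains and attracts cells bearing CXCR4, had the smallest p of the 26. Its 3' UTR of 5188 bases lies at chromosome 6, 117176180 to 117181367 (mm10). In the immunoprecipitates its group value was 9.17 in KO and 9.93 in WT. The Input value was 8.28 in KO and 7.96 in WT. KO minus WT was thus -0.76 in IP and 0.32 in Input. The authors' deposited table gives an interaction of 1.07 ± 0.38 (SE, 95% interval 0.33 to 1.81) that did not pass (adjusted p = 0.127, Wald test). The transcript was recovered above Input in both genotypes, by 0.89 in KO and 1.97 in WT. After subtraction of a length trend the interaction was 0.55 (recomputed Wald test, adjusted p = 0.817), since long 3' UTRs had higher interactions across the table.

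The receptors of CXCL12 are outside the symbol rule. Cxcr4, which transmits its signal, had 5.50 in KO IP and 6.03 in WT IP against 5.12 in KO Input and 5.39 in WT Input, with an interaction of 0.24 ± 0.59 by the authors' deposited table (adjusted p = 0.903, Wald test). Ackr3, a scavenging receptor for CXCL12, had 7.87 in KO IP and 8.23 in WT IP against 7.39 in KO Input and 7.15 in WT Input. Its interaction was 0.60 ± 0.38 by the authors' deposited table (adjusted p = 0.521, Wald test). Neither passed. These were the only 2 of 23 listed chemokine receptors with an adjusted p. Ccr2, the receptor of CCL2 and CCL7, had the smallest p of the list, with 1.46 ± 0.81 in the authors' deposited table, a mean count of 36.2 and p = 0.0706 before adjustment.

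**Figure D2:**
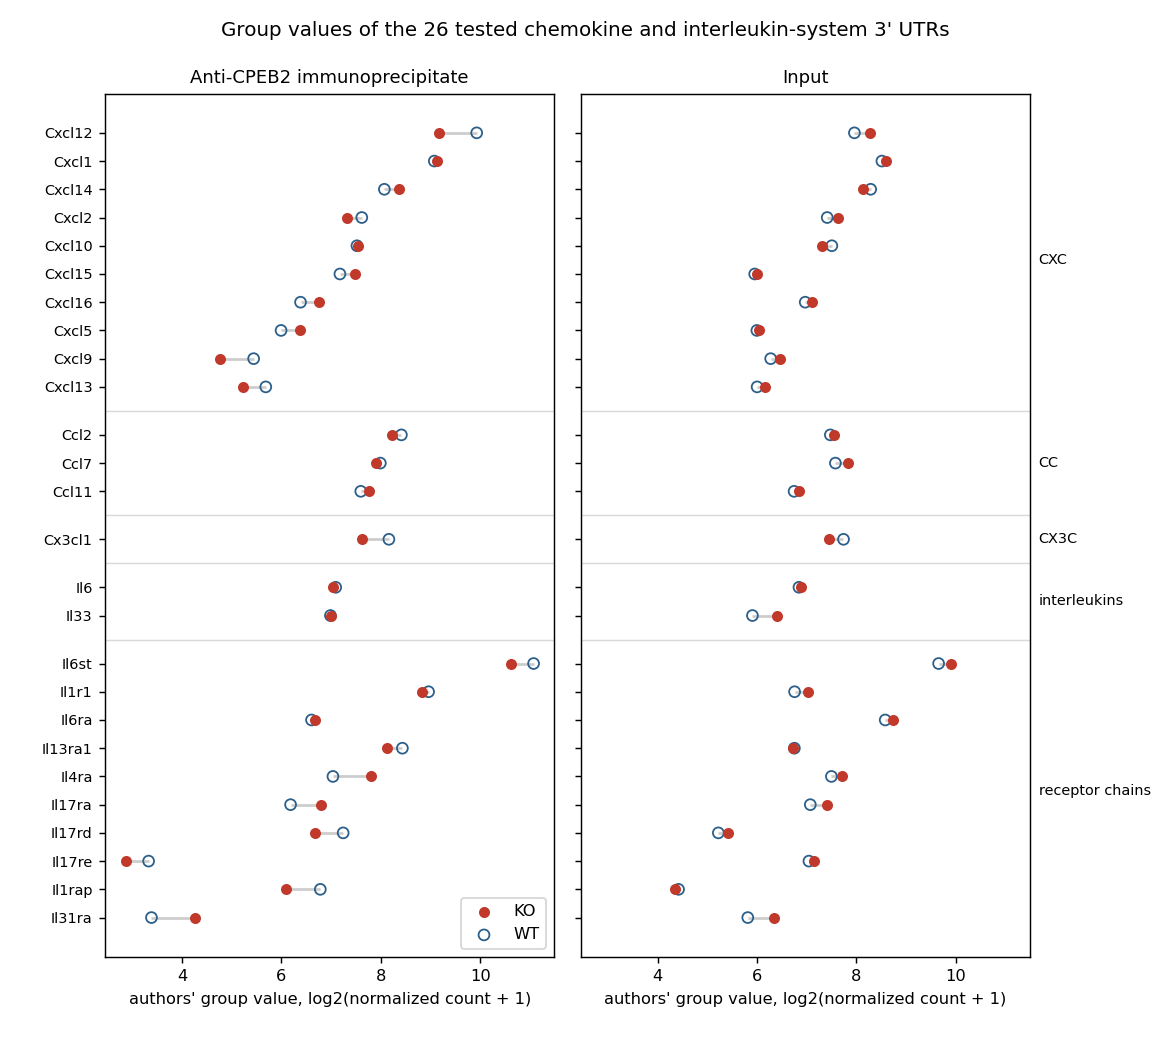
The authors' group values, log2 of a normalized count plus 1 (horizontal axes), in IP (left panel) and Input (right panel) for the 26 tested genes, with filled points for KO and open circles for WT. The KO and WT points lie within 0.88 of each other in IP and within 0.52 in Input for all 26 genes.

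The neutrophil-attracting CXC chemokines lie together on chromosome 5, where the 3' UTRs of Cxcl5, Cxcl3, Cxcl15, Cxcl1 and Cxcl2 fall between 90760514 and 90905909. Cxcl1 had 9.13 in KO IP and 9.08 in WT IP, and 8.59 in KO Input and 8.51 in WT Input. Its interaction of 0.01 ± 0.37 in the authors' deposited table had a 95% interval from -0.72 to 0.73, which leaves out a 2-fold difference of recovery either way. Its neighbour Cxcl2, also a CXCR2 ligand, had 7.32 in KO IP and 7.62 in WT IP, and 7.64 in KO Input and 7.41 in WT Input, with an interaction of 0.50 ± 0.44 in the authors' deposited table. Cxcl5 had 6.37 in KO IP and 5.99 in WT IP, and 6.04 in KO Input and 6.00 in WT Input, with -0.29 ± 0.53 in the same deposited table of the authors. Cxcl15, known as lungkine, was recovered above Input by 1.47 in KO and 1.22 in WT, the highest KO recovery of the 14 tested chemokines. The authors' deposited table gives it -0.25 ± 0.44. Cxcl3 had a mean count of 22.2, too low for an adjusted p. The 4 tested neighbours thus differ in recovery over Input, from -0.31 for Cxcl2 to 1.47 for Cxcl15 in KO, while their interactions in the authors' deposited table stayed between -0.29 and 0.50.

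The interferon-inducible CXCR3 ligands differed in recovery. Cxcl9 had 4.76 in KO IP and 5.44 in WT IP, and 6.47 in KO Input and 6.27 in WT Input, a recovery of -1.71 in KO and -0.83 in WT. The authors' deposited table gives it 0.88 ± 0.62 (adjusted p = 0.587, Wald test). Cxcl10 had 7.53 in KO IP and 7.52 in WT IP, and 7.31 in KO Input and 7.50 in WT Input, close to Input in both genotypes. Its interaction was -0.21 ± 0.40 by the authors' deposited table (adjusted p = 0.876, Wald test). Cxcl11, the third ligand, had a mean count of 7.60. The difference between Cxcl9 and Cxcl10 was not tested.

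Of the remaining CXC genes, Cxcl14, a chemokine of epithelia and stroma, had 8.37 in KO IP and 8.07 in WT IP, and 8.14 in KO Input and 8.29 in WT Input. Its interaction was the lowest of the 14 tested chemokines, -0.44 ± 0.38 by the authors' deposited table (adjusted p = 0.658, Wald test). Cxcl13, which attracts B cells, had recoveries of -0.94 in KO and -0.32 in WT, and Cxcl16, a membrane-anchored chemokine, of -0.36 in KO and -0.59 in WT. Their interactions in the authors' deposited table were 0.63 ± 0.56 and -0.23 ± 0.47. In all, 5 of 10 tested CXC genes had a positive interaction, beside 65.1% of all tested rows. The authors' deposited table puts their median at -0.10, beside 0.23 for all tested rows. Their 3' UTRs had a median length of 1128.5 bases, beside 1818 for all tested rows, where shorter 3' UTRs had lower interactions. The difference of the CXC genes from other rows was not tested.

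Of 21 CC chemokines, 3 were tested, and they are neighbours on chromosome 11. Ccl2, the monocyte attractant MCP-1, had 8.23 in KO IP and 8.41 in WT IP, and 7.55 in KO Input and 7.47 in WT Input. Ccl7, a relative that shares CCR2, had 7.90 in KO IP and 7.99 in WT IP, and 7.83 in KO Input and 7.58 in WT Input. Ccl11, the eosinophil attractant eotaxin, had 7.76 in KO IP and 7.60 in WT IP, and 6.85 in KO Input and 6.75 in WT Input. All 3 were above Input in both genotypes, by 0.07 to 0.91 in KO and 0.41 to 0.94 in WT. Their interactions in the authors' deposited table ran from -0.05 for Ccl11 through 0.26 for Ccl2 to 0.35 for Ccl7, with SE of 0.38 to 0.40. A second block on the same chromosome, Ccl5, Ccl9, Ccl6, Ccl3 and Ccl4, had no tested gene. Cx3cl1, fractalkine, a membrane-bound chemokine of endothelium and epithelium, had 7.62 in KO IP and 8.16 in WT IP, and 7.44 in KO Input and 7.74 in WT Input. It was lower in KO in both IP and Input, and the authors' deposited table gives it 0.26 ± 0.39 (adjusted p = 0.841, Wald test).

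Il6st, the gp130 gene, had the highest mean count of all 116 genes, 1391, over a 3' UTR of 5641 bases at chromosome 13, 112504446 to 112510086. Its group value was 10.62 in KO IP and 11.07 in WT IP, and 9.91 in KO Input and 9.65 in WT Input. It was lower in KO in IP and higher in KO in Input, as for Cxcl12. The authors' deposited table gives 0.72 ± 0.32 for its interaction (95% interval 0.08 to 1.35), which did not pass (adjusted p = 0.292, Wald test). After subtraction of the length trend it was 0.17 (recomputed Wald test, adjusted p = 0.950).

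The other parts of the IL-6 receptor system had lower recovery than Il6st, a difference between genes that was not tested. Il6ra, the ligand-binding chain, had 6.67 in KO IP and 6.61 in WT IP, and 8.73 in KO Input and 8.58 in WT Input. Its recovery was -2.07 in KO and -1.97 in WT, whereas that of Il6st was 0.71 in KO and 1.42 in WT. Il6 had 7.04 in KO IP and 7.09 in WT IP, and 6.88 in KO Input and 6.84 in WT Input. Interactions in the authors' deposited table were 0.09 ± 0.40 for Il6ra and 0.10 ± 0.43 for Il6, with 95% intervals from -0.70 to 0.88 and from -0.74 to 0.94. Il31ra, which pairs with the oncostatin M receptor for IL-31, had a recovery of -2.06 in KO and -2.43 in WT and an interaction of -0.40 ± 0.72 in the authors' deposited table.

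A list of 11 genes outside the symbol rule holds gp130-family genes and other cytokine receptor chains, such as Csf2rb and Crlf2. Of the 11, 5 were tested and 0 passed in the authors' deposited table (DESeq2 Wald test). Of all tested rows, 2.25% passed with lower recovery in KO. An unadjusted p under 0.05 was found for 1 of the 5, beside 12.5%. The median interaction was 0.34, which is the value of Csf2rb, beside 0.23. Lifr, the LIF receptor chain that pairs with gp130, had 10.09 in KO IP and 10.36 in WT IP, and 8.71 in KO Input and 8.15 in WT Input, with 0.82 ± 0.38 by the authors' deposited table (adjusted p = 0.306, Wald test). Osmr, the oncostatin M receptor chain, had 8.12 in KO IP and 7.70 in WT IP, and 7.10 in KO Input and 7.39 in WT Input. Its interaction had the opposite sign, -0.70 ± 0.39 by the authors' deposited table (adjusted p = 0.419, Wald test). Lif itself had 0.52 ± 0.36 and Csf2rb, a shared chain for IL-3, IL-5 and GM-CSF, 0.34 ± 0.41 in the authors' deposited table.

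Both chains of the IL-1 receptor were recovered above Input in both genotypes. Il1r1, the signalling receptor, had 8.84 in KO IP and 8.96 in WT IP, and 7.03 in KO Input and 6.76 in WT Input. Il1rap, the accessory chain shared with the IL-33 receptor, had 6.09 in KO IP and 6.78 in WT IP, and 4.34 in KO Input and 4.42 in WT Input. These are recoveries of 1.81 and 1.75 in KO, and of 2.20 and 2.36 in WT, the highest of the 26 genes in each genotype. Their interactions in the authors' deposited table were 0.40 ± 0.36 and 0.60 ± 0.60 and did not pass (adjusted p = 0.683 and 0.721, Wald test). Il33, an alarmin stored in nuclei, had 7.00 in KO IP and 6.99 in WT IP, and 6.40 in KO Input and 5.91 in WT Input. Its interaction of 0.49 ± 0.45 in the authors' deposited table goes with its Input values, 0.50 higher in KO, and not with its IP values.

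For IL-4 and IL-13, Il4ra, the chain common to both receptors, and Il13ra1, a partner chain of it, had interactions of opposite sign. Il4ra had 7.79 in KO IP and 7.04 in WT IP, and 7.70 in KO Input and 7.50 in WT Input. Il13ra1 had 8.13 in KO IP and 8.43 in WT IP, and 6.72 in KO Input and 6.75 in WT Input. KO minus WT in IP was 0.76 for Il4ra and -0.31 for Il13ra1. Their interactions in the authors' deposited table were -0.50 ± 0.46 for Il4ra and 0.28 ± 0.40 for Il13ra1 (adjusted p = 0.696 and 0.818, Wald test), and the difference between the genes was not tested.

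The IL-17 receptor chains spanned nearly the whole range of recovery, with the low end set by Il17re alone. Il17re, the IL-17C receptor chain of epithelia, had 2.87 in KO IP and 3.33 in WT IP, and 7.14 in KO Input and 7.04 in WT Input. Its recovery was -4.27 in KO and -3.71 in WT, the lowest of the 26 genes in each genotype. Back-transformed, Il17re had only 6.30 normalized counts in KO IP and 9.05 in WT IP, against 140 in KO Input and 131 in WT Input. It passed the filter on mean count through Input, and the size of its depletion rests on few IP counts. The authors' deposited table gave it the largest SE, 1.32, and its 95% interval spanned -2.32 to 2.85, which holds large differences of either sign. Il17ra, the shared chain, had 6.80 in KO IP and 6.18 in WT IP, and 7.40 in KO Input and 7.07 in WT Input. Il17rd, known as Sef and also an inhibitor of FGF signalling, had 6.68 in KO IP and 7.24 in WT IP, and 5.43 in KO Input and 5.22 in WT Input. Interactions in the authors' deposited table were -0.28 ± 0.49 for Il17ra and 0.80 ± 0.53 for Il17rd (adjusted p = 0.865 and 0.551, Wald test).

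**Figure D3:**
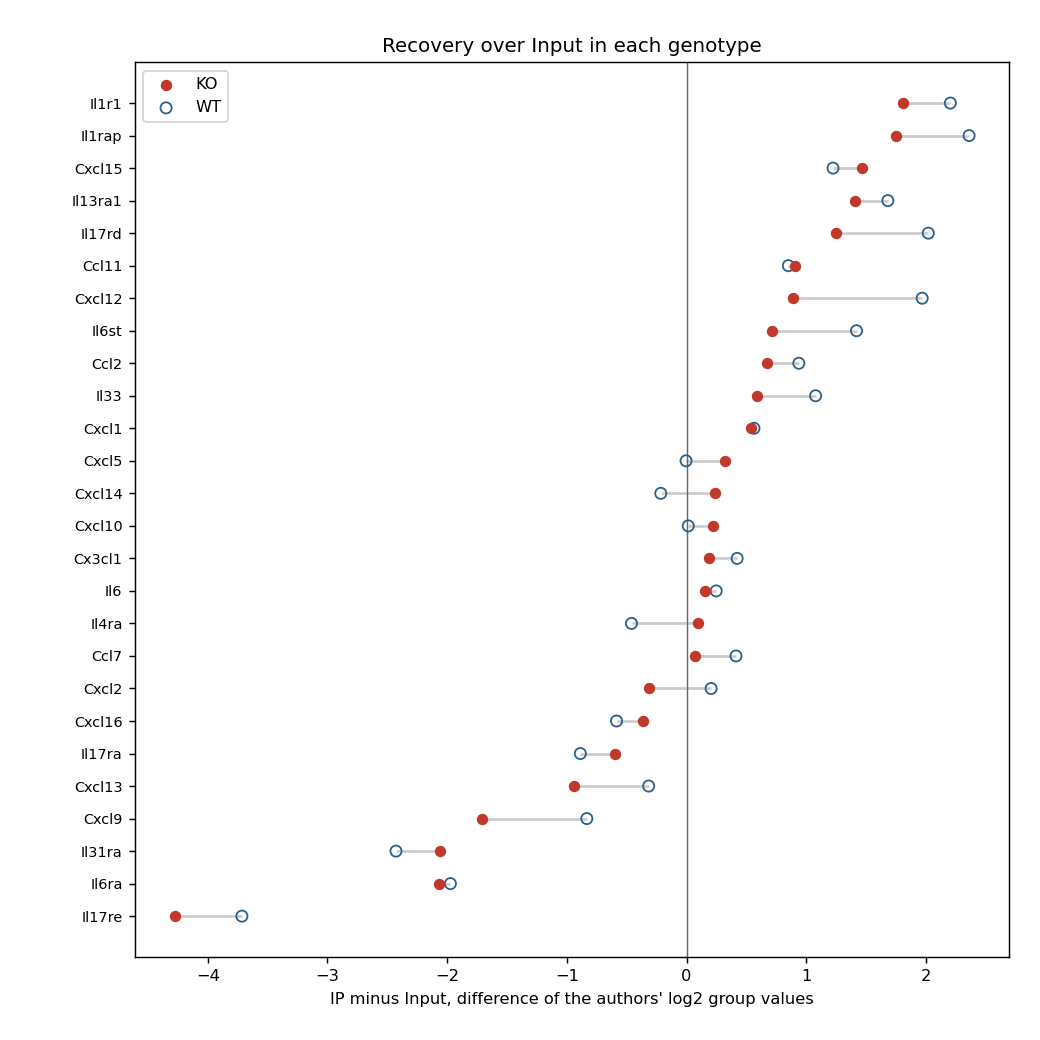
Recovery over Input, the difference of the authors' log2 group values for IP and Input (horizontal axis), for the 26 tested genes ordered by the KO value, with filled points for KO and open circles for WT. Il1r1 and Il1rap lie at the top and Il17re at -4.27 in KO and -3.71 in WT at the bottom.

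Recovery over Input ran in a similar order in both genotypes. Of the 26 genes, 15 lay above Input in both KO and WT and 7 below it in both, beside 49.7% and 35% of all tested rows. Cxcl2 lay below Input in KO and above it in WT, and Cxcl14, Cxcl5 and Il4ra lay above it in KO and below it in WT, and the value furthest from 0 among these 4 was -0.46 for Il4ra in WT. A recovery of at least 1 was reached by 5 genes in KO, or 19.2% beside 17% of all tested rows, and by 8 genes in WT, or 30.8% beside 28.1%. A depletion of at least 1 was found for 4 genes in KO beside 17% of all tested rows and for 3 in WT beside 15.7%. A recovery above 0 was found for 18 genes in KO beside 55.6% of all tested rows and for 16 in WT beside 59.1%. At a threshold of 0.5 the KO counts were 11 above beside 34.9% and 6 below beside 27.8%. The WT counts were 11 above beside 43.2% and 6 below beside 26.7%. Of the 44 genes with a mean count of at least 10, 7 were at least 1 below Input in KO beside 18.9% of such rows, and 6 in WT beside 20.8%. Across the 26 genes the KO and WT recoveries had a Spearman rho of 0.94, beside 0.86 across all tested rows, as a description across genes that share libraries. The KO immunoprecipitate serves as the antibody's background in this design.

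Length of the 3' UTR went with recovery. Across the 26 genes the Spearman rho with length was 0.37 for the KO recovery and 0.39 for the WT recovery, and across all tested rows it was 0.22 in KO and 0.37 in WT. The 17 tested genes with a 3' UTR of at least 1000 bases had a median recovery of 0.32 in KO and 0.42 in WT. The 9 with a shorter one had 0.15 in KO and 0.25 in WT. Genes of like length still differed, as with Il6ra (1837 bases) at -2.07 and Il33 (1677 bases) at 0.59 in KO. The interaction had a rho of 0.37 with length among the 26 and of 0.39 among all tested rows. Its median was 0.26 for both the longer and the shorter 3' UTRs among the 26, whereas among all tested rows it was 0.33 for those of at least 1000 bases and -0.19 for shorter ones. Its highest values in the group belonged to Cxcl12, Cxcl9, Il17rd and Il6st, 3 of which have the longest 3' UTRs of the 26.

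**Figure D4:**
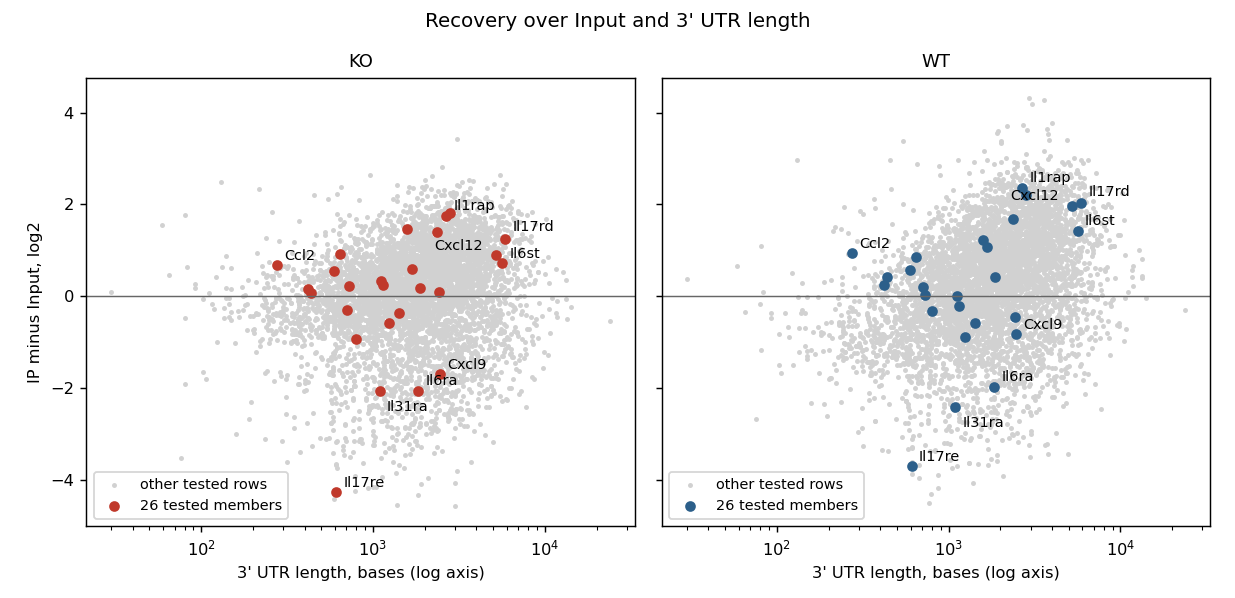
Recovery over Input on the log2 scale (vertical axis) against 3' UTR length in bases (log axis) in KO (left) and WT (right), with coloured points for the 26 tested genes and grey points for the other tested rows. Il6st, Cxcl12 and Il17rd, the longest, lie above 0 in both panels, and Il17re, Il6ra and Il31ra lie at or below -1.97.

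None of the 26 genes differed 2-fold between genotypes in IP or in Input. In IP, 0 of the 26 genes differed by at least 1 on the log2 scale, beside 0.845% of all tested rows higher in KO and 6.78% lower in KO. In Input 0 of 26 differed by at least 1, beside 0.188% higher and 0% lower. The largest IP differences were 0.88 for Il31ra and 0.76 for Il4ra, higher in KO, and -0.76 for Cxcl12 and -0.69 for Il1rap, lower in KO. Il31ra had the lowest mean count of the 26, 44.9, and back-transformed IP values of only 18.3 in KO and 9.46 in WT. At a difference of at least 0.5 in IP, 3 genes were higher in KO beside 9.97% of all tested rows, and 5 were lower beside 24.2%. In Input 1 gene was higher in KO by that much beside 4.13%, and 0 were lower beside 1.07%. In IP 12 of 26 genes were above WT in KO, beside 40.3% of all tested rows. In Input 21 of 26 genes were above WT in KO, or 80.8% beside 64.4% of all tested rows, with a median difference of 0.15 beside 0.09. Il31ra with 0.52 and Il33 with 0.50 had the largest Input differences. Of the 44 genes with a mean count of at least 10, 2 were higher in KO by at least 1 in IP beside 3.18% of such rows, and 3 were lower beside 7.6%. Those were Ccl9 and Il2ra above WT, and Il1rn, Il2rg and Il11 below it. These group values carry no error, so none of these differences was tested.

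Levels of different genes were compared per length of 3' UTR, as back-transformed normalized counts in Input per 1000 bases. Ccl2 had 678 in KO Input and 643 in WT Input, and Cxcl1 had 649 in KO Input and 615 in WT Input. Ccl7 followed with 520 in KO and 436 in WT. Next in KO Input came Cxcl2 with 281 in KO and 240 in WT, and Il6 with 279 in KO and 271 in WT. Cxcl14 had 245 in KO and 272 in WT, and Cxcl10 had 216 in KO and 248 in WT. The gp130 gene Il6st, first by count, had 170 in KO Input and 142 in WT Input. The lowest of the 26 per length were Il1rap, with 7.20 in KO and 7.63 in WT, and Il17rd, with 7.11 in KO and 6.16 in WT. Ccl2, Cxcl1, Ccl7, Cxcl2 and Il6 thus lay above every tested receptor chain per length in both Inputs. In WT Input Cxcl14 lay just above Il6, and both Cxcl14 and Cxcl10 lay above Cxcl2, so the order of these 4 differs between KO and WT and is not settled.

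**Figure D5:**
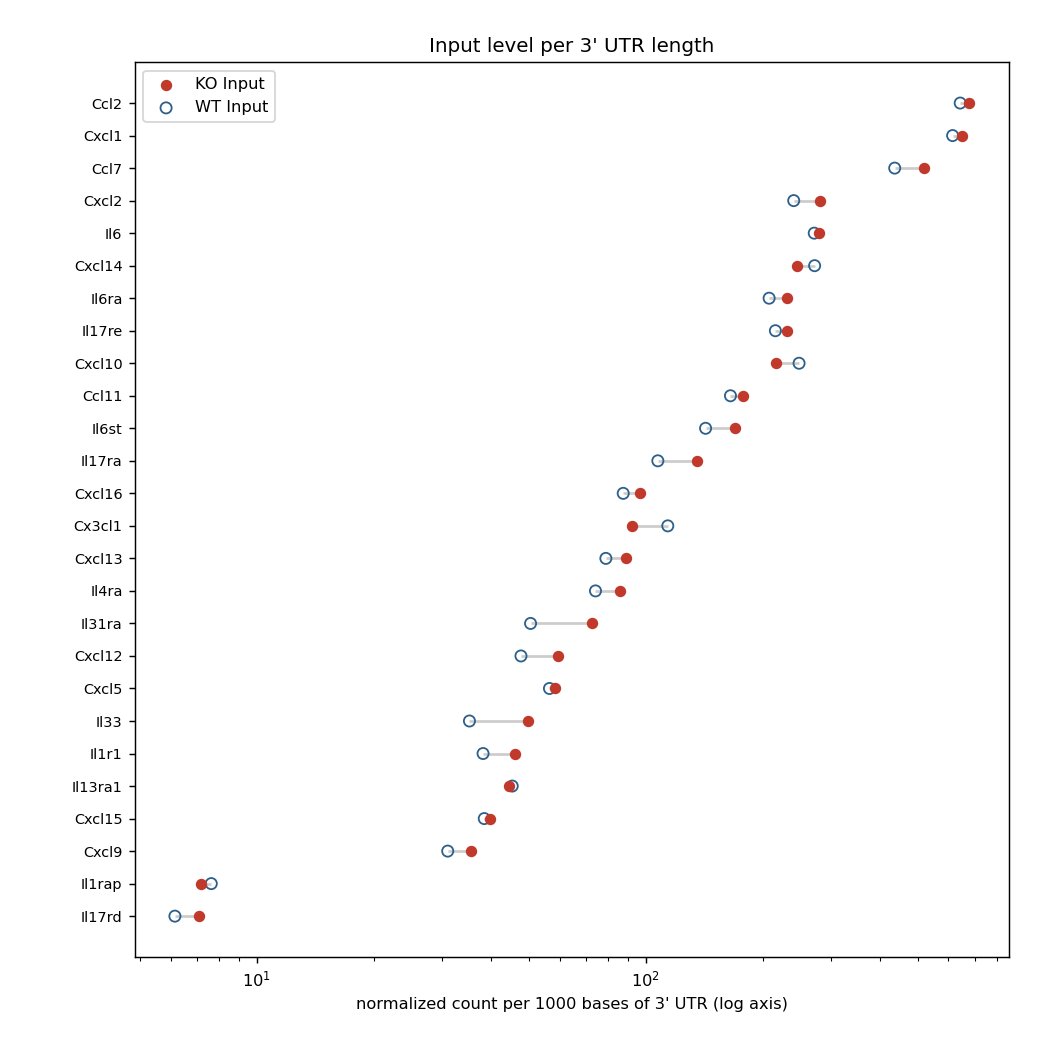
Input level per 1000 bases of 3' UTR, as back-transformed normalized counts (log axis), for the 26 tested genes ordered by the KO value, with filled points for KO Input and open circles for WT Input. Ccl2, Cxcl1 and Ccl7 lie at 436 or more in both genotypes, and Il1rap and Il17rd at 7.63 or less.

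Markers of other cell types were counted in the epithelium-enriched fraction. All 10 listed basal, 8 luminal progenitor and 8 hormone-receptor-positive luminal markers had counts, and so had all 20 leukocyte, 15 endothelial, 11 fibroblast and 6 adipocyte markers. No listed marker was at 0 over all libraries. Summed back-transformed values of leukocyte markers were 406 in KO IP and 265 in WT IP, and 538 in KO Input and 390 in WT Input. Those of fibroblast markers were 4501 in KO IP and 3103 in WT IP, and 3806 in KO Input and 3281 in WT Input. Endothelial markers summed to 1433 in KO IP and 2633 in WT IP, and to 2019 in KO Input and 1876 in WT Input. IP sums also hold recovery with the antibody. Of 10 tested endothelial markers 3 (Flt1, Sox18, Cdh5) passed the interaction test with lower recovery in KO, beside 2.25% of all tested rows. In IP, luminal progenitor markers summed to 903 in KO and 1387 in WT, and basal ones to 1293 in KO and 1407 in WT. Taken per gene, the median of KO minus WT in IP was 0.31 for the 10 basal markers, against the direction of their sum. It was -0.28 for the 8 luminal progenitor markers. Among these, Kit had the widest gap, with group values of 7.93 in KO IP and 9.65 in WT IP. Hormone-receptor-positive luminal IP sums were 3303 in KO and 3364 in WT, and adipocyte ones 148 in KO and 149 in WT. Hormone-receptor-positive luminal markers summed to 3523 in KO Input and 3029 in WT Input, and adipocyte markers to 234 in KO Input and 217 in WT Input. Basal markers summed to 2042 in KO Input and 2131 in WT Input, and luminal progenitor markers to 692 in KO Input and 845 in WT Input. Of the 7 lists, the basal and luminal progenitor sums were thus lower in KO Input and the other 5 higher. Gene by gene, where the mean count reached 10, only 6 of 13 endothelial markers were higher in KO Input. Their median difference was -0.06, against the direction of their sum. Higher in KO Input were 7 of 8 leukocyte, 9 of 11 fibroblast, 6 of 7 hormone-receptor-positive luminal and 2 of 2 adipocyte markers. For basal and luminal progenitor markers it was 3 of 10 and 2 of 8. Of the 26 tested genes, 21 were higher in KO Input, and so were 64.4% of all tested rows. The share over all rows with a mean count of at least 10 was not counted. The part of these cells in the chemokine and receptor values was not tested, and fewer cells of a type and less RNA per cell cannot be told apart in such bulk samples.

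Below the level of the adjusted test, 76 of the 116 genes had an unadjusted p, and 2 of these were under 0.05 with lower recovery in KO, beside 1.13% of all such rows. With Cxcl12 and Il6st these make 4 of 102 genes with a p, beside 4.66% of all rows with one. Il1rn, the IL-1 receptor antagonist, had 4.05 in KO IP and 5.46 in WT IP, and 3.95 in KO Input and 3.50 in WT Input. At a mean count of 21.4 the authors' deposited table gives it 1.95 ± 0.88 (95% interval 0.23 to 3.68), p = 0.0266 before adjustment. Il4i1, an amino acid oxidase induced by IL-4 and not a cytokine, had 2.72 in KO IP and 3.85 in WT IP, and 2.43 in KO Input and 0.69 in WT Input. At a mean count of 6.29 the authors' deposited table gives it 4.17 ± 1.74 (95% interval 0.77 to 7.57), p = 0.0162 before adjustment. Over every row with a p, neither passed (recomputed Wald adjustment, adjusted p = 0.802 for Il1rn and 0.680 for Il4i1).

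The other genes named from this layer by count did not reach an unadjusted p of 0.05. Among receptor chains, Il18r1 of the IL-18 receptor had 1.15 ± 0.68 in the authors' deposited table, Il2rg, the common gamma chain, 1.20 ± 0.86 and Il15ra 0.67 ± 0.71. Il11ra1, the IL-11 receptor, had -0.31 ± 0.65, Il1rl1, the IL-33 receptor ST2, -0.48 ± 0.71 and Il7r 0.04 ± 0.82 in the authors' deposited table. The ligand genes were Il7 with 1.07 ± 0.94, Il34, a CSF1 receptor ligand, with 0.16 ± 0.83, Cxcl3 with -0.86 ± 0.87 and Ccl9 with -0.25 ± 0.93 in the authors' deposited table. Ccl21a, a lymphatic chemokine with 0.97 ± 0.64 in the authors' deposited table, belongs to a family of nearly identical mouse copies. Its counts are uncertain, as are those of Il11ra1, because the sources used here do not fully say how reads that map to several places were handled. Each of these 11 intervals reached past 1 on the log2 scale in at least one direction.

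Downstream of these receptors, 0 of the listed signalling genes passed in the authors' deposited table (DESeq2 Wald test), beside 2.25% of all tested rows with lower recovery in KO. Of 19 JAK, STAT and SOCS genes 14 were tested, 10 had an interaction above 0, and the median was 0.25, beside 0.23 for all tested rows. Stat5b, a transcription factor of prolactin and cytokine signals, had 1.10 ± 0.44 (adjusted p = 0.211, Wald test) and Socs3, the feedback inhibitor of gp130, 0.68 ± 0.34 (adjusted p = 0.348, Wald test) in the authors' deposited table, and these were the 2 at an unadjusted p under 0.05. Of all tested rows, 12.5% were at that level with lower recovery in KO. Of 15 listed IL-1 and IL-17 signalling genes 14 had a row and 10 were tested. The tested ones had a median of 0.44 beside 0.23 for all tested rows. An unadjusted p under 0.05 was found for 1 of the 10, beside the same 12.5%. This was Myd88, the adaptor of IL-1 receptors, with 1.06 ± 0.53 by the authors' deposited table (adjusted p = 0.352, Wald test).

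Proteins that bind and destabilise or stabilise cytokine mRNAs had a median interaction of 0.61 in the authors' deposited table, beside 0.23 for all tested rows. Of 11 listed genes 10 were tested, and all 10 were above 0, beside 65.1% of all tested rows. None passed (DESeq2 Wald test), beside 2.25% of all tested rows with lower recovery in KO, and 2 of 10 had an unadjusted p under 0.05 with lower recovery in KO, beside 12.5%. The untested gene was Zc3h12a, the RNase regnase-1, at -0.38 ± 0.65 in the authors' deposited table. Khsrp, a decay factor, had 1.01 ± 0.43 (adjusted p = 0.260, Wald test) and Hnrnpd, or AUF1, 0.84 ± 0.42 (adjusted p = 0.359, Wald test) in the authors' deposited table. Rc3h1 and Rc3h2, which encode the roquins, had 0.76 ± 0.39 and 0.84 ± 0.43 in the authors' deposited table. Their IP values were 9.24 in KO and 9.61 in WT for Rc3h1, against 7.62 in KO Input and 7.26 in WT Input. At the low end of the 10, Elavl1 had 0.05 ± 0.41 and Zfp36 0.10 ± 0.34 in the authors' deposited table. Among all tested rows the median interaction was 0.33 for 3' UTRs of at least 1000 bases and -0.19 for shorter ones. The 3' UTR lengths of the listed genes were not compared with those of all tested rows. Nothing particular to these lists was tested.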

How the data were processed

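RNA immunoprecipitates and Inputs of KO and WT mammary cells, 8 libraries in 4 groups of 2, were used through 1 deposited table of 3' UTR rows on mm10. Bowtie2 2.2.2, Bowtie 0.12.9 and DESeq2 are listed, without roles, per the submitters' processing notes. The sources used here do not give the counting rule, the use of strand or, beyond a mapq1 tag on the deposited table, the treatment of reads mapping to several places. The authors deposited 1 log2 value per group, a mean normalized count (a signal over all libraries, per the file headers), and for the interaction a log2 fold change, an SE and a Wald score with a p-value and an adjusted p-value. The sign of the interaction was read from its Spearman rho of 0.998 across tested rows with the WT recovery minus the KO recovery of the group values. Recomputing each deposited p-value from its estimate and SE as a two-sided normal p gave the same values, and so did Benjamini-Hochberg adjustment over 5327 rows.

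The table also holds 8 columns per library whose names the labels do not pair with samples. They were not used, so no quasi-likelihood fit, replicate block or left-out library could be run, and depth per library is unknown. Group differences are untested. Intervals are estimates plus and minus 1.96 SE. Alternatives were a threshold of 0.10, subtraction of the median or of a running median over 301 rows by 3' UTR length, other filters on mean count, rows without overlaps, a pseudocount of 5 and other thresholds. The recomputed Wald and length steps were run on simulated normal estimates drawn with the authors' SE. Such a run checks the code only and not whether those SE are right. Named are all genes with an adjusted p, the 12 untested ones with the highest mean count and any at an unadjusted p under 0.05, and up to 4 per pathway list by p. The genes, lists and tests were chosen with earlier results of these data known. All 116 symbols matched the RefSeq gene table of GRCm38.p6, used for names only, and no 3' UTR sequence was used here. Computation used Python 3.11.15 with scipy 1.17.1, pandas 2.3.3 and numpy 2.4.6, and figures matplotlib 3.10.9.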

Additional observations from a re-analysis of the deposited data

How the results depend on the processing

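The count of 0 genes past the adjusted p held under all 6 alternatives run for it, namely the threshold of 0.10, the median or the length trend subtracted, no filter on mean count, a mean count of at least 100 and overlapping rows left out. Of all 5327 tested rows, 120 passed as reported, 169 at 0.10, 30 with the median and 17 with the length trend subtracted. With no filter 47 of 17226 passed, 109 rows at a mean count of at least 100 and 108 without overlaps. With so few rows passing, a count of 0 says little about these genes. Cxcl12 had its lowest adjusted p, 0.0875, with a mean count of at least 100 and its highest, 0.817, with the length trend subtracted. Genes at an unadjusted p under 0.05 numbered 1 with the median subtracted, 0 with the length trend subtracted and 4 with no filter on mean count, against 2 as reported. Over all rows, 4.66% were at that level with lower recovery in KO with no filter, and 12.5% as reported. The shares over all rows with the median or the length trend subtracted were not counted. With the median subtracted the interaction turned to -0.13 for Il6, -0.14 for Il6ra, -0.22 for Cxcl1, -0.19 for Il7r and -0.075 for Il34, and with the length trend subtracted to -0.10 for Il13ra1, -0.13 for Il6ra and 0.10 for Ccl11, none of which passed.

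KO and WT differed in IP by at least 1 in 1 gene (Il31ra, higher in KO) after subtracting the median over tested rows, and in 2 higher and 3 lower at a mean count of at least 10. At a threshold of 0.5 these were 3 higher and 5 lower in IP and 1 higher in Input. Recovery at or past the threshold was 7 lower in KO and 6 lower in WT at a mean count of at least 10. It was 11 higher in KO and 6 lower in WT at a threshold of 0.5, and 5 lower in WT with the median subtracted. The pseudocount of 5 moved none of these counts by more than 1.5 times. Shares over all tested rows were not counted with the median subtracted or with the pseudocount of 5. The alternatives with a mean count of at least 10 tested more genes and that of 0.5 used a lower threshold, while subtracting the median shifted every gene by the same amount. No paired analysis was possible because the group values carry no replicate numbers and the columns per library are not paired with samples, and no library could be left out. Precision rests on the authors' SE. In 6 of 26 genes (Cxcl1, Ccl2, Il6ra, Cxcl10, Ccl11 and Il6) the 95% interval lay within 1 on either side of 0, beside 11.9% of all tested rows, a reading chosen after seeing the data, and in the others a 2-fold difference was not left out.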
